A study of Homo sapiens with 8 samples.

Results

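Decorin, lumican, complement C3 and C7 and 6 further genes of quiescent connective tissue were followed through RNA sequencing of 8 libraries. The members are DCN, LUM, C3, C7, FBLN1, PI16, DPT, MFAP5, CXCL12 and PDGFRA, taken by symbol from the deposited counts, and all 10 were found among the 63241 gene rows. They were chosen with results of these data known, and their rule names 2 libraries, control 2 and control 3, because decorin and collagen levels part there, so that pair is described without a test. By their labels, 4 libraries came from cells given an siRNA against COL1A1 (called knockdown 1 to 4 below) and 4 from cells given a negative control siRNA (control 1 to 4). All 8 are labelled HSC3, an established line of an oral squamous cell carcinoma, and shared a dose of 100 pmol siRNA with a lipid reagent and 48 hours of culture after it. Nothing in the labels says that the libraries of a label came from different cultures, and the spread behind each p-value may therefore be technical. Within each label, though, every pair of libraries differed by far more than counting error (chi-square per degree of freedom over genes of 482 to 1876).

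Fibroblasts at rest deposit and space the collagen fibrils of connective tissue. Decorin and lumican are small leucine-rich proteoglycans that bind collagen fibrils and limit their width, while fibulin 1, dermatopontin and MFAP5 join elastic fibres, microfibrils and collagen. PI16 and DPT mark fibroblasts found around vessels in many human tissues, CXCL12 is a chemokine of stromal cells, and PDGFRA is a receptor tyrosine kinase used to recognise fibroblasts. Fibroblasts also make complement, a cascade of blood and tissue proteins in which C3 is the central component and C7 a part of the pore that closes the cascade. Wound and tumour fibroblasts, in contrast, are recognised by high type I and III collagen, periostin and fibroblast activation protein.

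The cell types behind these counts could not be taken from the label. Markers of squamous epithelium (KRT5, KRT14, KRT6A, KRT13, DSG3 and TP63) together held between 0.0443% and 11.2% of the counts of a library. The 6 skeletal muscle markers, led by the sarcomere gene TTN, summed to 29.5, 33649, 19.4 and 39813 CPM (counts divided by the library's column total and scaled to a common size) in knockdown 1 to 4 and to 126937, 3243, 126660 and 23.03 CPM in control 1 to 4. Gland markers were above 1% of counts in knockdown 2 and control 1 only. Endothelial markers summed to between 127 and 470.1 CPM in knockdown and between 118 and 461 CPM in control, and the macrophage list to between 20.0 and 92.5 CPM in knockdown and between 52.3 and 294 CPM in control, with CD68 at or below 0.329 CPM in every library while CSF1R and CD163 were detected in each. The part of these cell types in the results below was not tested. In counts of a mixed sample, fewer cells of a type and less RNA per cell cannot be told apart. Totals ran from 30684584 to 61795990 counts per library.

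COL1A1, the siRNA target, stood at 368, 123, 301 and 155 CPM in knockdown 1 to 4, against 88.9, 8183, 476 and 689 CPM in control 1 to 4. Control 1 was lower than all 4 knockdown libraries and control 2 far above every other library, so directions below are between labels. The COL1A1 log2 fold change of knockdown over control was -2.97 (SE 1.300, edgeR quasi-likelihood test, adjusted p = 0.981). It was -0.48 without control 2.

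Decorin had high and low libraries within both labels. DCN (chr12:91140484-91183123, minus strand; this and later positions are on GRCh38) stood at 42.8, 204, 27.5 and 209 CPM in knockdown 1 to 4, against 254, 151, 1271 and 39.5 CPM in control 1 to 4. Control 3 held far more than any other library, and knockdown 2, knockdown 4 and control 1 lay close together below it. Control 2 came next, nearer to knockdown 2 than to knockdown 1, knockdown 3 and control 4, which were low. DCN averaged 121 ± 99.3 CPM over the 4 knockdown libraries and 429 ± 568 CPM over the 4 control libraries (± SD). The log2 fold change of knockdown over control was -1.71 (SE 0.9975, edgeR quasi-likelihood test, adjusted p = 0.981 over the 21192 genes tested), and it was -0.41 without control 3.

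Lumican, whose gene lies 28652 bases from DCN on the same strand (chr12:91102629-91111831), did not follow it through the libraries. LUM stood at 40.7, 32.7, 14.2 and 81.0 CPM in knockdown 1 to 4, against 19.2, 148, 155 and 48.9 CPM in control 1 to 4. It was high in both control 2 and control 3, and control 1, second for DCN, had the second lowest LUM. The count ratio of DCN to LUM was 1.05, 6.25, 1.93 and 2.58 in knockdown 1 to 4, against 13.2, 1.02, 8.18 and 0.808 in control 1 to 4. On the log2 scale that ratio differed between labels by -0.36 (knockdown minus control, exact two-sided permutation test, p = 0.8, adjusted p = 0.857 over 3 ratios, smallest possible p = 0.0286), and it was 0.03, 0.34 and 0.11 without knockdown 1, control 1 or control 3. LUM had a log2 fold change of -0.94 (SE 0.647, edgeR adjusted p = 0.981), or -0.60 without control 2. The next genes along this proteoglycan cluster, KERA and EPYC, were at or below 2.80 CPM in every library, with EPYC listed at 0 in 7 of 8.

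The DCN count relative to the COL1A1 count parted the libraries into high and low values within both labels. It was 0.116, 1.66, 0.0912 and 1.35 in knockdown 1 to 4, against 2.85, 0.0185, 2.67 and 0.0574 in control 1 to 4. DCN exceeded COL1A1 in knockdown 2, knockdown 4, control 1 and control 3, the 4 libraries in which muscle markers took over 1% of counts. The log2 ratio differed by 0.39 between labels (knockdown minus control, exact two-sided permutation test, p = 0.857, adjusted p = 0.857 over 3 ratios), and its sign turned without any one of knockdown 2, knockdown 4, control 2 or control 4.

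**Figure D1:**
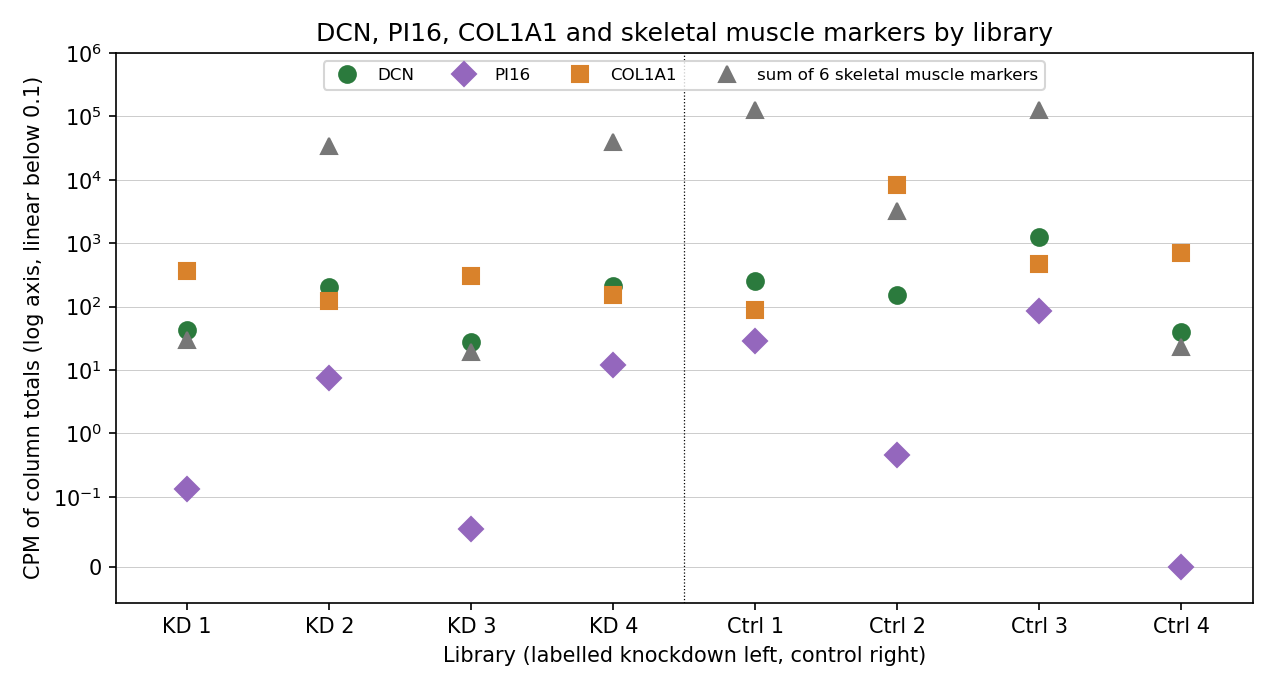
Level of DCN, PI16, COL1A1 and the sum of 6 skeletal muscle markers in each library (x axis, 4 labelled knockdown on the left and 4 labelled control on the right), in CPM on an axis that is logarithmic above 0.1 and linear below. DCN lies above COL1A1 in knockdown 2, knockdown 4, control 1 and control 3 and below it in the other 4 libraries, with the widest gap in control 2 (8183 CPM of COL1A1 and 151 CPM of DCN).

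Fibulin 1 was the member with the smallest unadjusted p. FBLN1 (chr22:45502238-45601135, plus strand) stood at 19.6, 41.9, 8.23 and 73.8 CPM in knockdown 1 to 4, against 69.2, 61.9, 377 and 44.7 CPM in control 1 to 4. Knockdown 4 lay above 3 of the 4 controls, so the groups overlapped. FBLN1 averaged 35.9 ± 28.9 CPM over the knockdown libraries and 138 ± 160 CPM over the control libraries (± SD over 4 libraries each). The edgeR quasi-likelihood test gave FBLN1 a log2 fold change of -1.80 (SE 0.784, unadjusted p = 0.0477, adjusted p = 0.981), and of -0.74 without control 3. MFAP5, a microfibril glycoprotein (chr12:8637346-8662888, minus strand), kept the narrowest range of all members, at 23.02, 9.29, 3.24 and 12.4 CPM in knockdown 1 to 4 and 15.3, 16.7, 20.1 and 5.90 CPM in control 1 to 4. Knockdown 1, low for most members, held the most MFAP5. The MFAP5 log2 fold change was -0.10 (SE 0.604, edgeR adjusted p = 0.998) and changed sign when single libraries were left out (-0.77 without knockdown 1, and 0.22, 0.06, 0.09 and 0.01 without knockdown 3, knockdown 2, control 1 or control 3).

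Dermatopontin and PI16 spanned the widest ranges among the matrix and surface proteins here. DPT (chr1:168695459-168729264, minus strand) stood at 0.465, 4.66, 0.274 and 8.94 CPM in knockdown 1 to 4, against 8.998, 0.939, 79.0 and 0.0384 CPM in control 1 to 4. PI16, a peptidase inhibitor family member (chr6:36948263-36964837, plus strand), stood at 0.133, 7.59, 0.0549 and 12.1 CPM in knockdown 1 to 4, against 28.9, 0.453, 85.4 and 0 CPM in control 1 to 4. Both were high in the same 4 libraries, knockdown 2, knockdown 4, control 1 and control 3, and below 1 CPM in the other 4. A count of 0 in control 4 allows up to 0.0577 CPM (3 counts of the total, counting error only). Relative to DCN the 2 genes also differed between libraries, since PI16 had 3.11, 37.2, 2.00 and 57.6 counts per 1000 DCN counts in knockdown 1 to 4 and 114, 3.00, 67.2 and 0 in control 1 to 4. The log2 fold change was -2.51 for DPT (SE 1.752) and -2.51 for PI16 (SE 2.092), each with an edgeR adjusted p of 0.981. DPT was at -0.14 without control 3 and -3.51 without knockdown 4, and PI16 at -1.28 and -3.51 in those fits. With limma-voom they were at -0.17 and -0.34.

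Complement C3 followed another order of libraries. C3 (chr19:6677704-6730562, minus strand) stood at 16.9, 369.6, 15.1 and 18.4 CPM in knockdown 1 to 4, against 322, 303, 1109 and 25.5 CPM in control 1 to 4. Knockdown 2 lay near controls 1 and 2, while knockdown 4, with DCN and PI16 close to those of knockdown 2, held about as little C3 as knockdown 1 and knockdown 3. Per 1000 DCN counts C3 had 396, 1809, 548 and 87.8 counts in knockdown 1 to 4 and 1269.9, 2003, 873 and 646 in control 1 to 4. Its log2 fold change was -2.05 (SE 1.276, edgeR adjusted p = 0.981), or -4.38 without knockdown 2 and -1.21 without control 3.

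C7 had counts in 6 of the 8 libraries. It (chr5:40909252-40982939, plus strand) stood at 0, 18.9, 0 and 3.01 CPM in knockdown 1 to 4, against 25.3, 0.744, 24.8 and 0.154 CPM in control 1 to 4. Control 2, with as much C3 as control 1, had little C7, and the 0 counts of knockdown 1 and knockdown 3 allow up to 0.0498 and 0.0823 CPM. The log2 fold change was -1.36 (SE 2.053, edgeR adjusted p = 0.993), or -3.72 without knockdown 2, -0.53 without control 1 and -3.01 with limma-voom. With 0.5 added to both counts, the log2 ratio of C3 to C7 averaged 6.996 ± 4.18 over the knockdown libraries and 6.27 ± 2.17 over the control libraries (± SD, n = 4 each), a difference of 0.72 (exact two-sided permutation test, p = 0.743, adjusted p = 0.857 over 3 ratios), or -0.61, -0.31 and -0.14 without knockdown 1, knockdown 3 or control 1.

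The chemokine and the receptor had the same 4 high libraries as dermatopontin and PI16 over a narrower range. CXCL12 (chr10:44370165-44386493, minus strand) stood at 4.14, 73.9, 4.09 and 50.2 CPM in knockdown 1 to 4, against 78.6, 13.0, 276 and 2.25 CPM in control 1 to 4. PDGFRA (chr4:54229097-54298247, plus strand) stood at 10.6, 29.7, 2.22 and 47.8 CPM in knockdown 1 to 4, against 53.3, 18.2, 138 and 2.38 CPM in control 1 to 4. For both, control 4 lay near the lowest knockdown libraries and control 3 was highest. The log2 fold changes were -1.44 for CXCL12 (SE 1.325) and -1.17 for PDGFRA (SE 1.092), with an edgeR adjusted p of 0.981 each. Without control 3 they were -0.17 and -0.29, without knockdown 4 PDGFRA was at -1.81, and with limma-voom they were -0.57 and -0.47.

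**Figure D2:**
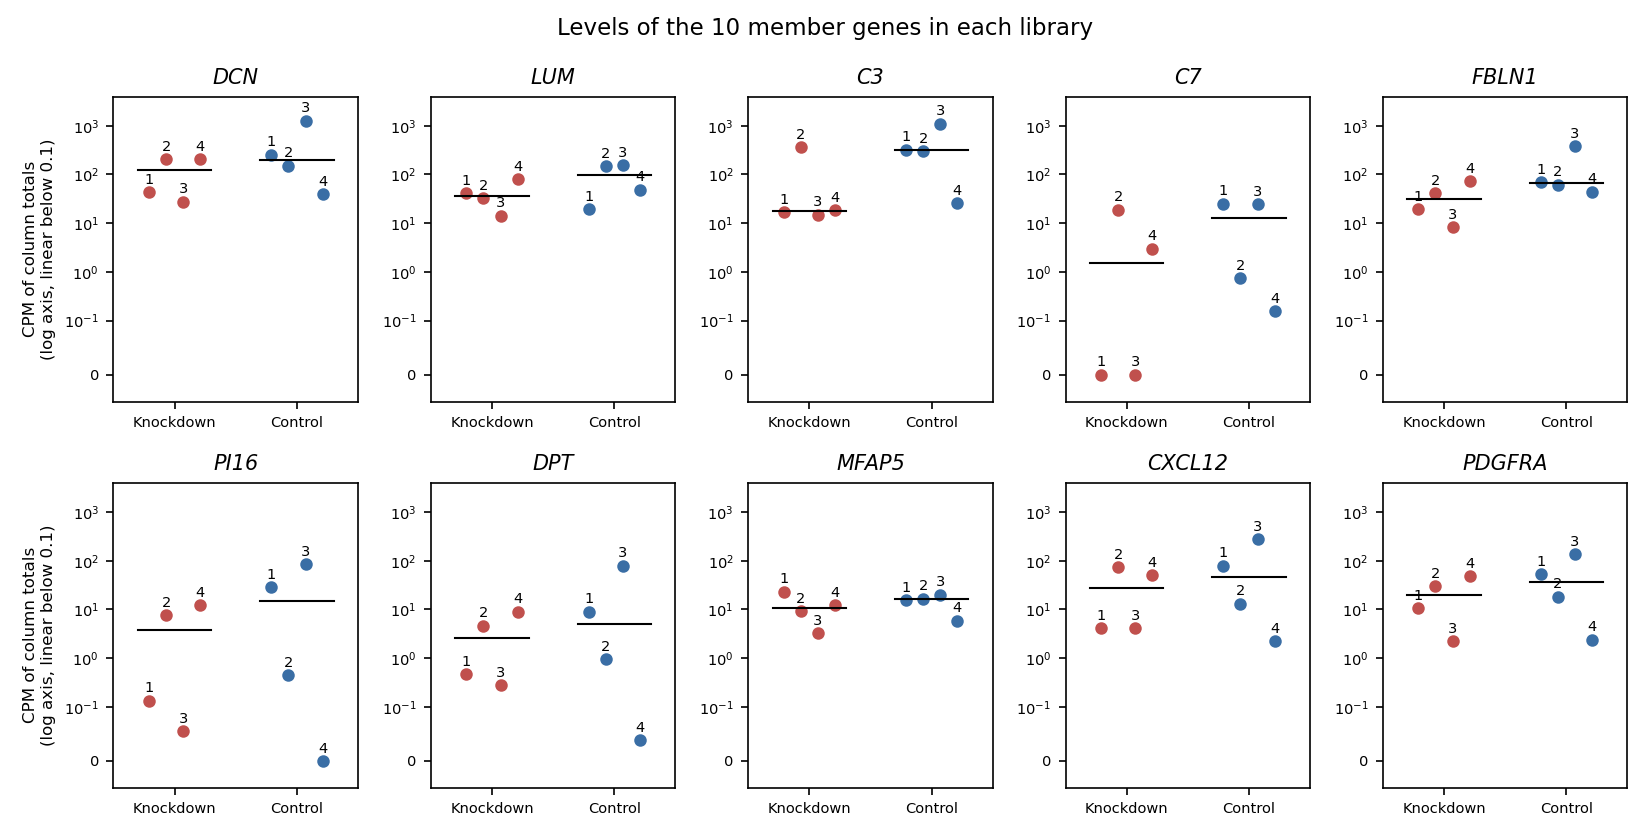
Level of each member gene per library, in CPM on an axis that is logarithmic above 0.1 and linear below, with knockdown left of control in every panel. Points carry the replicate number and lines mark the group median. Every panel overlaps between labels, and DCN, C7, PI16, DPT, CXCL12 and PDGFRA share the same 4 high libraries (knockdown 2 and 4, control 1 and 3).

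The same 4 libraries were highest for 6 of the 10 members. For DCN, C7, PI16, DPT, CXCL12 and PDGFRA the 4 highest libraries were knockdown 2, knockdown 4, control 1 and control 3, as for 13.8% of the 21192 tested genes, and the same 6 members had knockdown 1, knockdown 3 and control 4 lowest (13% of tested genes). Control 3 was the highest library for 8 of 10 members, all but C7 and MFAP5, beside 19.2% of tested genes. Members come from the same libraries and were chosen with these values known, so the counts describe them. The 4 libraries are those with the most skeletal muscle markers, which ranged from 33649 to 126937 CPM in them and from 19.4 to 3243 CPM in the other 4. Adipocyte markers (ADIPOQ, PLIN1, LEP and CIDEC) were also higher there, summing to 48.6 and 16.9 CPM in knockdown 2 and 4 and to 22.2 and 162 CPM in control 1 and 3, against at most 0.942 CPM elsewhere, where ADIPOQ had 0 counts. In a fit with the log2 muscle marker level as a covariate, chosen after seeing the data, PI16, DPT, CXCL12 and PDGFRA were at 0.37, 0.34, 0.31 and 0.32 and DCN and C3 at -0.58 and -1.12, none past the threshold (edgeR).

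The sequences before the start sites of DPT and CXCL12 are shown because, of the matched members, DPT (with C7) holds the fewest CpG dinucleotides and CXCL12 the most. Of the 10 members 6 matched RefSeq's promoter table (GRCh38.p14; 250 bases before to 50 after the start). CpG dinucleotides are in capitals, 2 in DPT on the minus strand (chr1:168729157-168729456) and 39 in CXCL12 on the minus strand (chr10:44385048-44385347).
DPT: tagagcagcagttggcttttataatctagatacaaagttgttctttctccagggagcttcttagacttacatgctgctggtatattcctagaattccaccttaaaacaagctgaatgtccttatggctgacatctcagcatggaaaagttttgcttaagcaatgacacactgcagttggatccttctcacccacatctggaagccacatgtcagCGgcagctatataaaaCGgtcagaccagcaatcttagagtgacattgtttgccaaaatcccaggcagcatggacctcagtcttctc
CXCL12: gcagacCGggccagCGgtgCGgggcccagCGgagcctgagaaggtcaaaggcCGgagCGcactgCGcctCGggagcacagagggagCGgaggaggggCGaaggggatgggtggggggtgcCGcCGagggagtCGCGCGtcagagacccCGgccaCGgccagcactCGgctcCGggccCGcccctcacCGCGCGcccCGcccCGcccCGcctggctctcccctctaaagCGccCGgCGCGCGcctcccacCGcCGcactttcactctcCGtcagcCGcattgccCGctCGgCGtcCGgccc
The median over the 35116 promoters in the table was 14 CpG. C7 had 2, PI16 3 and FBLN1 35, and PDGFRA has 2 listed starts with 8 and 32. No relation between CpG content and level was tested. The letters TATAAA, searched on both strands, occurred in the windows of C7 and DPT and in 11.5% of all promoters; a match is a description of these letters only.

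Between the labels, no member passed the threshold in the edgeR test, and neither did any other gene. The edgeR test called 0 of 10 members and 0 of 21192 genes (0% at an adjusted p under 0.05). At an unadjusted p under 0.05 it had 1 member (FBLN1) and 1013 genes (4.78%). DESeq2 called 0 members and 148 of 24437 genes (0.606%). The groups overlapped for all 10 members, and did not for 2.35% of tested genes. All 10 members were fitted lower in knockdown, with a median log2 fold change of -1.58, where 53.2% of tested genes were fitted lower with a median of -0.05. The members were chosen with these values known and many share their high libraries, so nothing is read from that count. Their median was -0.53 without control 3 and -2.06 without knockdown 2, with 9 of 10 members fitted lower in both fits. It was -0.66 with limma-voom, with all 10 fitted lower, and -0.27 with the muscle marker level as a covariate, with 5 of 10 fitted lower. In a fit without the 4 libraries rich in muscle or gland markers (over 1% of counts), chosen after seeing the data, 6 of the 8 members still tested were fitted lower with a median of -0.69, and C7 and PI16 no longer passed the filter on low counts.

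**Figure D3:**
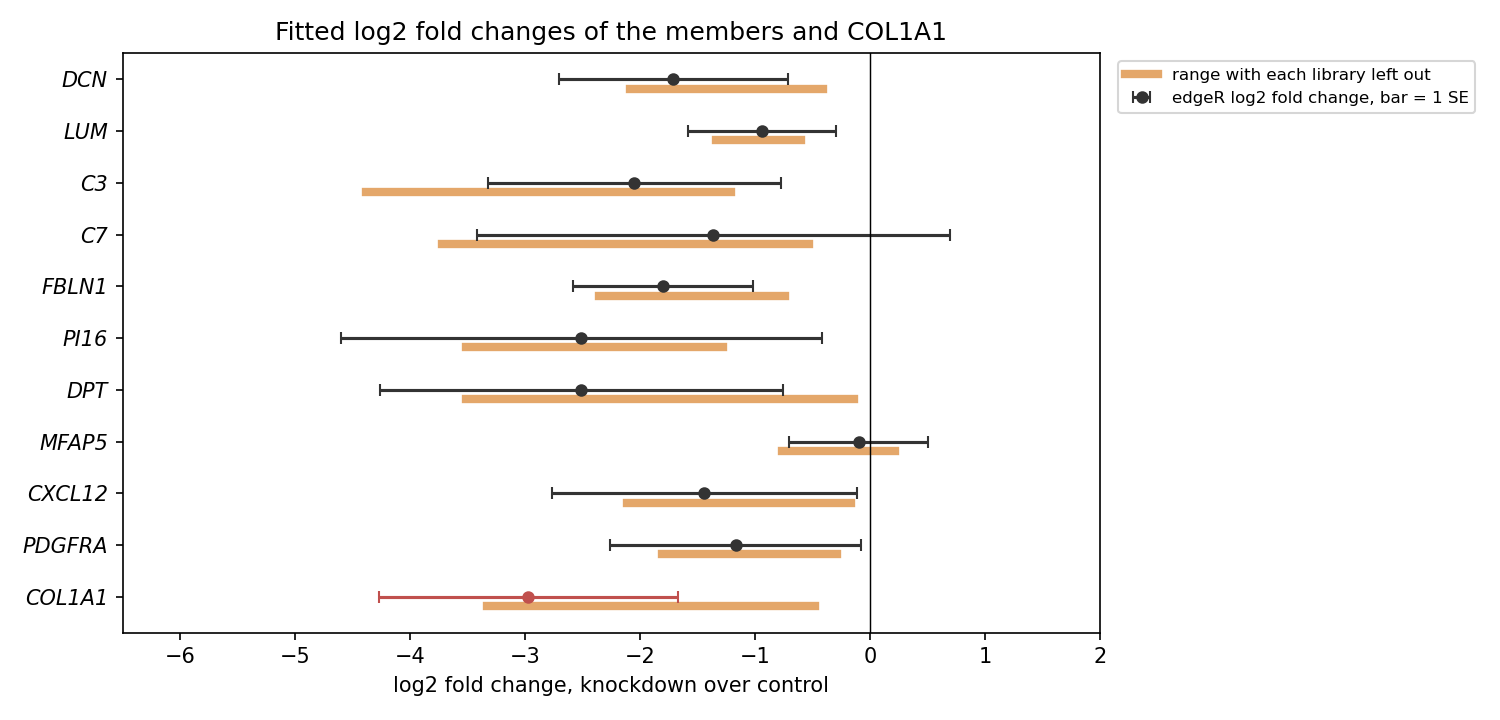
Fitted log2 fold change of knockdown over control (x axis) for the 10 members and COL1A1 (rows), with points for the edgeR estimate over 8 libraries, bars for the SE derived from its F statistic and orange lines for the range with each library left out. The orange lines of DPT, CXCL12, PDGFRA and DCN reach nearly to 0 (-0.14, -0.17, -0.29 and -0.41, each without control 3), and that of MFAP5 crosses it.

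Control 2 and control 3 carry the same label, and most members were far lower in control 2. PI16 stood at 0.453 CPM in control 2 and 85.4 CPM in control 3, 189-fold lower in control 2 (log2 ratio -7.56, 95% counting interval -8.15 to -7.02). DPT was 84.2-fold, C7 33.3-fold, CXCL12 21.2-fold, DCN 8.40-fold, PDGFRA 7.61-fold, FBLN1 6.10-fold and C3 3.66-fold lower in control 2. LUM and MFAP5 were near equal in both libraries, at log2 ratios of -0.07 (95% counting interval -0.12 to -0.02) and -0.27 (-0.41 to -0.13), and the sign for LUM turned with TMM-scaled library sizes (0.04). So 8 of 10 members were more than 2-fold lower in control 2 and 0 more than 2-fold higher, where 24.6% and 21.5% of the 18873 genes with at least 50 counts in the pair were; the members were picked on this pair, and nothing is read from the count. Intervals are exact binomial ones and cover counting error only, with 1 library on each side and so no replicate check.

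Genes of activated fibroblasts were higher in control 2. COL1A1 was 17.2-fold, COL3A1 10.8-fold and COL1A2 5.72-fold higher in control 2 than in control 3. Of 19 activated fibroblast genes 18 were more than 2-fold higher there, with a median log2 ratio of 3.27. The exception was COMP, a cartilage matrix protein, at -0.07. Of the 18873 genes with at least 50 counts in the pair, 21.5% were more than 2-fold higher in control 2 and 24.6% lower. The pair was named because collagen and decorin levels part there, and the lists were chosen with earlier results of these data known. The list counts of this paragraph are therefore descriptions, and nothing is read from them. The companion genes highest in control 2 relative to control 3 were INHBA, an activin subunit, at 161 CPM in control 2 and 1.55 CPM in control 3, COL11A1 at 69.9 and 0.806 CPM, and the protease MMP11 at 86.5 and 1.30 CPM. Those lowest, among genes with counts in both, were ADH1B, an alcohol dehydrogenase, at 0.129 CPM in control 2 and 283 CPM in control 3, the slow muscle myosin MYH7 at 28.1 and 16450 CPM, and PLIN1, which coats fat droplets, at 0.324 and 104 CPM. The adipocyte genes ADIPOQ and CIDEC had 0 counts in control 2, against 36.3 and 15.2 CPM in control 3. Outside the cell type marker lists, the lowest after ADH1B were the Wnt antagonist SFRP1 at 2.14 and 189 CPM and C6, which precedes C7 in the pore, at 0.0971 and 5.02 CPM. Of 26 other resting and adventitial fibroblast genes 18 were more than 2-fold lower in control 2 and 3 higher (median log2 ratio -2.18). Among the lower ones were the tenascin TNXB at 13.1 and 269 CPM and the adventitial collagen COL14A1 at 54.7 and 272 CPM. The higher ones were SFRP2 (204 and 66.1 CPM), IGFBP6 (58.8 and 26.9 CPM) and SFRP4 (17.6 and 6.98 CPM). Elastic fibre and complement lists went both ways. More than 2-fold higher and lower in control 2 were 4 and 7 of 16 elastic fibre and fibulin genes (median -0.23). For complement the counts were 7 and 7 of 16 pathway components (median -0.60) and 6 and 5 of 18 regulators and receptors (median 0.44). Within the small leucine-rich proteoglycans the family split, with ASPN (56.4 CPM in control 2 and 3.32 CPM in control 3) and biglycan, BGN (181 and 59.5 CPM), among 3 of 9 genes over 2-fold higher in control 2, and PRELP (5.24 and 60.9 CPM), PODN (16.7 and 64.9 CPM) and OMD (3.90 and 13.8 CPM) among 5 that were over 2-fold lower. Pan-fibroblast and mural PDGFRB was at 171 and 157 CPM, while the other mural markers parted in both directions. NOTCH3 (744 and 212 CPM) and CSPG4 (158 and 63.1 CPM) were higher in control 2, and RGS5 (24.3 and 151 CPM) was lower. The same pair differed in summed skeletal muscle markers (3243 CPM in control 2 and 126660 CPM in control 3), adipocyte markers (0.777 and 162 CPM) and Schwann and perineurial markers (5.73 and 29.7 CPM). It also differed in squamous (53887 and 14169.8 CPM), macrophage (294 and 64.9 CPM) and leukocyte markers (92.3 and 34.2 CPM), while endothelial markers were at 352 and 357 CPM; their part in these ratios was not tested.

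**Figure D4:**
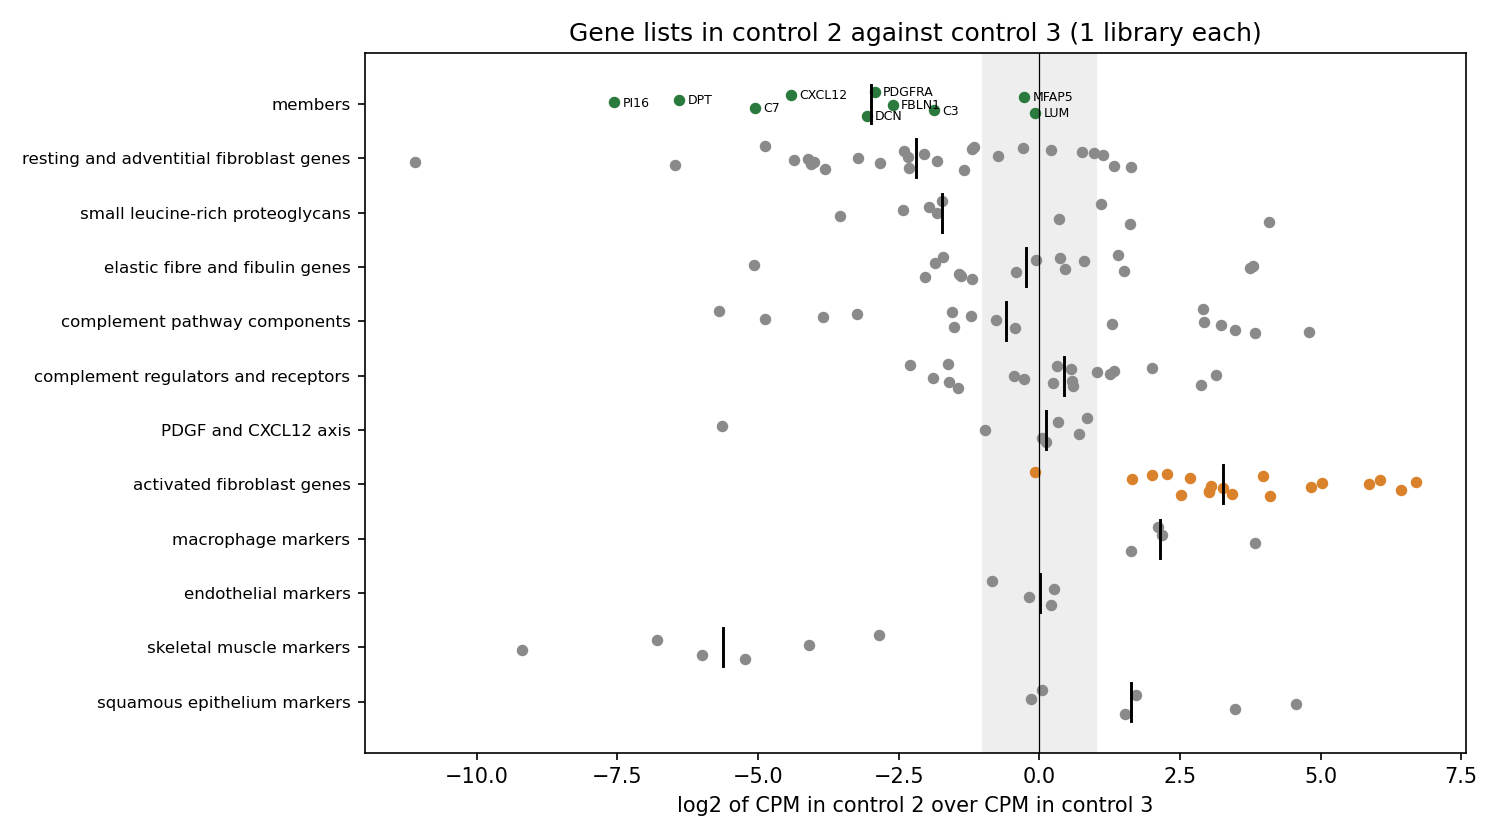
Log2 ratio of CPM in control 2 over CPM in control 3 (x axis) for the genes of each list (rows) with at least 50 counts in the 2 libraries together; points are genes, black lines list medians, and the grey band marks ratios within 2-fold. Members run from -7.56 (PI16) to -0.07 (LUM), and activated fibroblast genes run from -0.07 to 6.70 with a median of 3.27.

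Among other genes of the members' pathways and of other cell types, 0 of the 149 tested passed the edgeR test (0% of all genes; DESeq2 called 1, the adipocyte hormone LEP, adjusted p = 0.0429, at 0.0332, 0.261, 0.0549 and 0.219 CPM in knockdown 1 to 4 and 0.625, 0.453, 6.20 and 0.731 CPM in control 1 to 4). Of 26 resting and adventitial fibroblast genes 18 were fitted lower in knockdown with a median log2 fold change of -0.91, or -0.11 without control 3. The most abundant were GSN, an actin-severing protein, at a log2 fold change of -0.23 (SE 0.464; 0.09 without control 3), and the chemokine CXCL14 at 0.61 (SE 1.104; 0.12 without knockdown 1). Of 16 elastic fibre and fibulin genes 15 were fitted lower (median -0.99, or -1.53 without knockdown 2), with fibrillin 1, FBN1, at -1.73 (SE 0.761) and LTBP4, which binds latent TGF-beta, at -1.28 (SE 0.704; -2.06 without knockdown 4). Of 10 tested small leucine-rich proteoglycans 7 were fitted lower (median -0.82, or -0.29 without control 2), with BGN at -0.22 (SE 0.492) and FMOD, fibromodulin, at 0.44 (SE 1.078). Both signs turned on 1 library, with BGN at 0.43 without control 2 and FMOD at -1.43 without knockdown 2. FMOD stood at 216 CPM in knockdown 2 and between 6.14 and 25.0 CPM in the other knockdown libraries, against 9.54 to 101 CPM in control. Of 7 other genes of the PDGF and CXCL12 axis 6 were fitted lower (median -0.78, or -0.38 without control 3), with PDGFRB at -1.39 (SE 0.589) and the ligand PDGFC at -0.48 (SE 0.717; -0.13 without control 1 and -1.52 without knockdown 2). For comparison 17 of 19 activated fibroblast genes were fitted lower, with a median of -1.92 that shrank to -0.48 without control 2, and COL1A2 was at -2.81 (SE 0.964), or -1.12 without control 2. The edgeR adjusted p was between 0.981 and 0.996 for each of these genes with a log2 fold change.

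Complement genes came in more than a single pattern across the libraries. The C1q chains C1QA, C1QB and C1QC, made mainly by macrophages, were highest in control 2, with C1QC at 18.0, 34.9, 13.6 and 5.89 CPM in knockdown 1 to 4 and 20.2, 198, 17.9 and 64.9 CPM in control 1 to 4. The macrophage receptor CSF1R was highest in the same library (191 CPM in control 2, and 15.2 to 89.4 CPM in the other 7). The proteases C1R and C1S, which act with C1q, were highest in control 3. C1S stood between 73.1 and 196 CPM in knockdown, against 357 CPM in control 3 and 33.8 to 126 CPM in the other controls. CFD, the protease factor D, stood at 5.47, 25.1, 5.10 and 32.0 CPM in knockdown 1 to 4, against 69.6, 5.73, 168 and 9.11 CPM in control 1 to 4. C6 was highest in knockdown 2 and control 3 (5.34 and 5.02 CPM) and had 0 counts in knockdown 1, knockdown 3 and control 4. The pore components C8A and C8B were at or near 0 throughout, with C8A listed at 0 in all 8 libraries and C8B at or below 0.0549 CPM. C4A and C4B are near-identical copies, and their counts are uncertain.

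Of the complement regulators and receptors, CD59 and CLU were the most abundant. CD59, which blocks the pore, stood between 290 and 514 CPM in knockdown and between 346 and 520.2 CPM in control, with a log2 fold change of -0.17 (SE 0.377, edgeR adjusted p = 0.996), or -0.04 without control 1 and -0.32 without control 3. Clusterin, CLU, which also binds the pore, was far more variable, at 15.0, 255, 3.68 and 100.1 CPM in knockdown 1 to 4 and 834, 55.7, 206 and 51.3 CPM in control 1 to 4, with a log2 fold change of -1.84 (SE 1.306, edgeR adjusted p = 0.981) that was -0.05 without control 1. The complement regulators and receptors had 13 of 18 tested genes fitted lower in knockdown (median -0.67, or -0.16 without control 2), and the pathway components other than C3 and C7 had 13 of 17 (median -0.30, or -0.80 without knockdown 2 and -0.13 without knockdown 1). C1R was at -0.72 (SE 0.513; -0.42 without control 3) and C1S at 0.05 (SE 0.671; -0.31 without knockdown 3 and 0.66 without control 3), with edgeR adjusted p of 0.981 and 0.998.

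**Figure D5:**
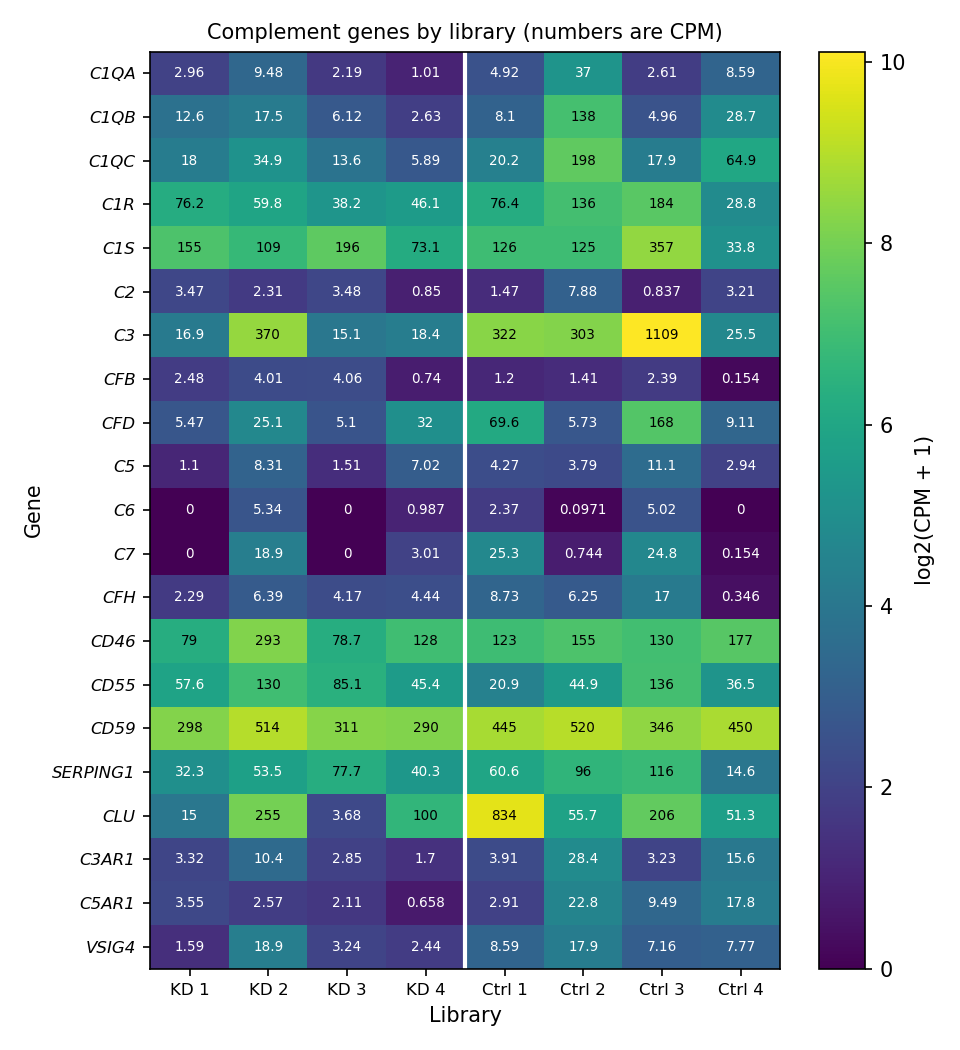
Level of 21 complement genes (rows, from the C1 complex through C3 and the pore to regulators and receptors) in each library (columns, knockdown left, control right); colours show log2(CPM + 1) and the printed numbers are CPM. C1QA, C1QB and C1QC peak in control 2, C3, C1R, C1S and CFD in control 3, and C7 exceeds 1 CPM in knockdown 2, knockdown 4, control 1 and control 3 alone.

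Genes with the pattern most like DCN were sought by the root mean square difference of centred log2(CPM + 1) over the 8 libraries, among 9686 named genes with a mean of at least 10 CPM and counts in every library. The 8 nearest were CCDC80, a secreted matrix protein (0.35), PLPP3, a lipid phosphatase (0.39), COL14A1 (0.41), the kinase scaffold AKAP12 (0.43), the collagen receptor DDR2 (0.43), integrin ITGA9 (0.44), PLCL2 (0.46) and the protease ADAMTS1 (0.47), where the median gene differed by 1.77. CCDC80 stood at 11.7, 78.3, 9.98 and 65.1 CPM in knockdown 1 to 4 and 70.1, 80.7, 288 and 11.7 CPM in control 1 to 4. The members nearest DCN were PDGFRA (0.56), DPT (0.66), FBLN1 (0.68) and CXCL12 (0.76), and the farthest were C3 (1.33), MFAP5 (1.39) and LUM (1.41). Adding 1 to the CPM flattens differences at or below 1 CPM, as in DPT and C7, so this order depends on that setting. Per 1000 DCN counts, DPT ran from 0.972 in control 4 to 62.2 in control 3. LUM ran from 75.6 in control 1 to 1238 in control 4, a narrower range in folds. Nearest C7 were CP, the copper carrier ceruloplasmin (0.30), PPP1R12B, a myosin phosphatase subunit (0.42), and FILIP1 (0.46). C3 had no gene nearer than 1.04, the value for DIRAS1, followed by ZBTB10 (1.06) and MRAS (1.09).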

How the data were processed

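The 8 libraries were sequenced as RNA. The authors deposited 1 table of raw read counts per gene, not normalised. The submitters' processing notes list hg38, STAR and featureCounts (Subread); tool versions, annotation and strandedness were not given in the sources used here. PolyA RNA is the labelled molecule, whereas the labels' protocols describe ribosomal RNA depletion. Columns were matched to libraries by group and number. The count columns of the knockdown libraries are headed COL1A1-KO, an abbreviation usual for a knockout, whereas the sample labels describe an siRNA knockdown. Ensembl identifiers were matched to symbols without version, with 62666 of 63241 rows named. Positions and overlaps come from GENCODE 29 (GRCh38). There, C3, DPT and PDGFRA overlap another gene on their strand, and C7 and MFAP5 one on the other strand, so their counts are uncertain where such reads could be shared.

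CPM used column totals. Knockdown and control were compared with edgeR 4.0.16 (quasi-likelihood, TMM factors, filterByExpr, Benjamini-Hochberg adjusted p under 0.05) in R 4.3.3, on all 8 libraries. The filter kept 21192 genes and all 10 members. The SE given with an edgeR log2 fold change is its absolute value divided by the square root of the test's F statistic. Ratios used exact permutation tests over the 70 assignments in scipy 1.17.1; C7 had 0 counts in 2 libraries, so 0.5 was added to both counts of its ratio. The fit was tested on simulated data with known changes. With the spread between libraries set to that estimated over all genes here (coefficient of variation 0.7925), it recovered 0% of 2-fold and 6% of 4-fold changes. It recovered 58% of 16-fold and 100% of 64-fold changes there, and 90% of 2-fold changes at a coefficient of 0.2. Changes of 2-fold and 16-fold were simulated upward only, and those of 4-fold and 64-fold downward only. Every gene had the same spread, and only genes above a minimum mean level were changed. Recovery at the spread of single genes, the members among them, was not simulated. A lack of calls between the labels therefore does not show that levels were equal. Depths ran from 30684584 to 61795990 counts, and intervals and floors (3 counts) cover counting error only. Alternatives were other scalings and filters, DESeq2 1.42.0, limma-voom (limma 3.58.1), a replicate block and leaving out each library. The members and the 16 companion lists were chosen with earlier results of these data known. Named genes were the members, COL1A1, the 2 most abundant of each companion list where none was called, the 3 companion genes at each end of the control pair (with counts in both), and those nearest in pattern to DCN, C3 and C7; other names were chosen after their values were seen.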

Additional observations from a re-analysis of the deposited data

Results flagged for a closer look

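Groups of 4 libraries were examined for 10 members, COL1A1 and the 3 ratios in each label, 28 groups in total. In 5 of them, 1 library stood apart from the other 3 by more than Dixon's 95% critical share of the group's range. That share marks about 1 group in 20 for independent, normally distributed values. The genes' CPM were used without logarithms, and many of these genes share their high libraries, so the flags are not set against that rate. Control 2 and control 3 were also named by the rule because collagen and decorin levels part there. Among libraries labelled knockdown, knockdown 2 stood apart for C3 (369.6 CPM, against 15.1 to 18.4 CPM in the other 3) and for C7 (18.9 CPM, against 0 to 3.01 CPM). Among those labelled control, control 3 stood apart for FBLN1 (377 CPM, against 44.7 to 69.2 CPM) and for DPT (79.0 CPM, against 0.0384 to 8.998 CPM), and control 2 for COL1A1 (8183 CPM, against 88.9 to 689 CPM). Knockdown 2 also held 81822 CPM of gland markers and 33649 CPM of skeletal muscle markers, and control 3 held 126660 CPM of skeletal muscle markers; the part of these in the values was not tested.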

How the results depend on the processing

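No member passed the threshold in any of the 18 alternative fits, and 167 of 178 member fold changes kept the direction of the reported fit. The exceptions were MFAP5 (-0.77 to 0.22 with each library left out), DPT and MFAP5 without the 4 libraries rich in muscle or gland markers (0.0658 and 0.62), and PI16, DPT, MFAP5, CXCL12 and PDGFRA with the muscle marker level as a covariate (0.37, 0.34, 0.0379, 0.31 and 0.32). The genes called were 148 with DESeq2, of which 0 are members and 1 is a companion gene, and 0 to 1 with each library left out (SPRR2F without knockdown 2); the cause was not tested. With each library left out, the DCN to COL1A1 ratio ran from -0.95 to 1.47, DCN to LUM from -1.003 to 0.34 and C3 to C7 from -0.61 to 2.19. For control 2 against control 3, the members' median was -2.89 with TMM-scaled sizes and -3.14 with totals without genes over 1% of counts, against -3.00; the LUM ratio was 0.0439 with TMM. Library totals in place of TMM moved the median of all genes to -0.21. No pairing by replicate number was seen: deviations of same-numbered libraries correlated at -0.66 to -0.37, and 0 of 8 correlated best with their own number. Muscle, gland and squamous markers differ widely between libraries, so these correlations cannot tell whether same-numbered libraries were prepared together. With the replicate block edgeR called 0 genes and 0 members (DCN -1.10, C3 -2.45, members' median -1.003). For the 3 ratios the block leaves the difference fixed by arithmetic, and exact sign-flip tests over 4 pairs, too few to reach the threshold, gave p = 1, 0.875 and 0.875.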

Other observations

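The marker lists of other cell types differed in the direction of their fits between labels, and no gene in them passed the edgeR test (0 called in each list). All 6 squamous epithelium markers were fitted higher in knockdown (median log2 fold change 1.29). That median was 0.90 without knockdown 1 and 0.31 with the muscle marker level as a covariate, with 2 of 6 fitted lower in both fits. The keratin KRT6A was at 2.13 (SE 2.136) and the basal keratin KRT14 at 2.28 (SE 1.683). KRT14 stood at 32387, 531, 28854 and 3352 CPM in knockdown 1 to 4 and at 281, 12498, 1117 and 4263 CPM in control 1 to 4, so the groups overlapped. All 6 skeletal muscle markers (median -1.93, or -1.01 without control 1, with 5 of 6 lower, and -3.07 without knockdown 4), all 4 adipocyte markers (median -1.42, or 0.68 without control 3) and all 4 tested macrophage markers (median -1.16, or -0.32 without control 2) were fitted lower. CSF1R, the receptor on which macrophages depend, was at -1.50 (SE 0.566; -0.85 without control 2) and CD163, a haemoglobin scavenger receptor, at -0.82 (SE 0.752; -0.22 without control 2). Endothelial markers split 2 to 2 (median -0.09), as did mural markers (median -0.23), with the endothelial clotting factor VWF at 0.04 (SE 0.516), PECAM1 at -0.22 (SE 0.544), NOTCH3 at 0.18 (SE 0.726) and CSPG4 at -0.48 (SE 0.577). With single libraries left out, VWF ran from -0.23 to 0.50, PECAM1 from -0.50 to 0.06, NOTCH3 from -0.21 to 0.52 and CSPG4 from -0.96 to -0.19. Leukocyte markers had a median of 0.06 in 3 genes, with PTPRC at -0.62 (SE 0.531) and CD3E at 0.06 (SE 0.681), or 0.02 and 1.04 without control 2 and, for CD3E, -0.27 without control 4. Each of these genes had an edgeR adjusted p of 0.981 or more.

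Gland markers were high in knockdown 2 and control 1, and Schwann and perineurial markers summed to 104 CPM in knockdown 2 and 106 CPM in control 1, against 5.70 to 29.7 CPM elsewhere. LCN1, a lipocalin of gland secretions, stood at 66024 CPM in control 1 and at or below 0.391 CPM in the other 7 libraries. MUC5B, a mucin, stood at 60244 CPM in knockdown 2 and 3948 CPM in control 1, and at or below 3.43 CPM elsewhere. SOX10, a transcription factor of Schwann cells that gland epithelium also expresses, was at 68.8 CPM in knockdown 2 and 86.5 CPM in control 1 and at or below 3.41 CPM elsewhere, and S100B ranged from 2.14 to 17.2 CPM in knockdown and from 3.87 to 13.1 CPM in control. The gland median of 1.91 was -7.38 without knockdown 2 and 9.55 without control 1, and the Schwann and perineurial median of 0.30 was -0.28 without knockdown 2. Of the sarcomere genes, TTN was fitted at -1.82 (SE 2.625) and MYH7 at -3.64 (SE 2.841), while the adipocyte genes PLIN1 and ADIPOQ were at -1.83 (SE 1.998) and -0.68 (SE 2.428). Without control 3 the adipocyte genes turned to 0.33 and 1.74, and without control 1 TTN was at -1.004.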
